A study of Homo sapiens with 4 samples.

Results

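The mRNA levels of 10 genes of the integrated stress response and the unfolded protein response (NUPR1, ATF4, DDIT3, ATF3, CHAC1, TRIB3, DDIT4, HSPA5, XBP1 and SESN2) were examined in anaplastic thyroid cancer (ATC) cells that tolerate paclitaxel. The 10 members, of 26485 gene names in the tables, were chosen by name as known genes of these pathways and with the high level of NUPR1 in 8505C-PTX already known, so that value and all the others below are given as a description. SW1736 and 8505C are established human cell lines derived from ATC, and paclitaxel is a taxane that stabilizes microtubules. The resistant cells SW1736-PTX and 8505C-PTX were obtained from them with paclitaxel doses rising from 1 nM to 1.5 µM over 6 months. They were then maintained with the drug at 1.5 µM, whereas the wild-type (wt) cells SW1736 wt and 8505C wt received none. Each condition was measured by RNA sequencing in 1 library, 4 libraries in all, and the resistant population of each line is 1 selection. Effects of the selection and of the drug present in the medium cannot be told apart in these groups. The variation from culture to culture is unknown with such single libraries, so no difference was tested.

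The integrated stress response begins with kinases that phosphorylate the translation factor eIF2α, among them PERK in the endoplasmic reticulum (ER) and GCN2, which senses amino acid shortage. Bulk protein synthesis then falls while the mRNA of the transcription factor ATF4 is translated more, and ATF4 switches on genes for amino acid supply, redox balance and, through DDIT3 (CHOP), cell death. The unfolded protein response also works through IRE1, which splices the mRNA of XBP1, and through ATF6, and both raise ER chaperones such as HSPA5 (BiP). Gene-level mRNA values show neither the translation of ATF4 nor the splicing of XBP1.

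Levels are in FPKM, reads scaled to the length of the gene and the depth of the library. FPKM does not give each library the same sum over genes, so comparisons between libraries are approximate. The log2 fold change was log2((PTX + 0.1)/(wt + 0.1)) on this scale, and the change of a weakly expressed gene comes out too small on it. A gene entered a comparison if either library of the pair had more than 0.5 FPKM, and it was called up or down when the log2 fold change was beyond 1.5 in that direction (2.83-fold on this scale). The libraries held an estimated 43.5 to 57.9 M aligned reads, and between 12393 and 13430 genes were above 0.5 FPKM.

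The library labelled SW1736-PTX stood apart from SW1736 wt in genes that mark the cell of origin. PAX8, a thyroid transcription factor, stood at 38.2 FPKM in SW1736 wt and 0.123 in 8505C wt, against 0.206 in SW1736-PTX and 0.146 in 8505C-PTX. NKX2-1, another thyroid transcription factor, was listed at 0 in SW1736 wt, while the other 3 libraries had 36.3 (SW1736-PTX), 30.5 (8505C wt) and 39.0 (8505C-PTX). KRT19, an epithelial keratin, stood at 266 in SW1736 wt against 0.535 in SW1736-PTX, and it was listed at 0 in both 8505C libraries. For these genes SW1736-PTX was close to the 8505C libraries and far from the cells it is labelled as derived from. CDH5, an endothelial cadherin, did not follow these genes. It stood at 55.9 FPKM in 8505C wt and 4.535 in 8505C-PTX, against 0.225 in SW1736-PTX, and was listed at 0 in SW1736 wt. Over 14692 genes, Pearson's r of log2(FPKM + 0.1) between SW1736-PTX and SW1736 wt was 0.767, against 0.873 with 8505C wt and 0.933 with 8505C-PTX, as a description across genes of single libraries. The methods state short tandem repeat typing of both lines without naming the PTX cultures. Fold changes of SW1736-PTX are therefore given against SW1736 wt and, for the members, the lists and the list genes that the text names, also against 8505C wt, and SW1736-PTX names the library that carries this label. The part of the labels in the SW1736 results was not tested. The differentiated thyroid markers TSHR and SLC5A5 were listed at 0 in all 4 libraries, and TG did not exceed 0.00586 FPKM.

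A short element of these pathways lies near an annotated start of 4 members. Their sequences upstream of that start set the element known from ATF4 targets beside the one known from ER chaperones. RefSeq windows on GRCh38.p14, from 250 bases before to 50 after each start, were found for 9 of the 10 members in 15 windows, and NUPR1 had none. Some members have several windows, so a match holds for that start and not for every start of the gene. With both strands searched, TGATGNAA, the core of the C/EBP-ATF response element, was found in 2 of the 15 windows (of ATF3 and CHAC1), and 3.62% of all 35116 windows hold it. The ER stress response element, CCAAT and CCACG set 9 bases apart, was found in 2 of the 15 windows (of HSPA5 and XBP1), against 0.0769% of all windows. The letters TGACGTG of the unfolded protein response element were found in the windows of 0 members and in 1.97% of all windows. In the sequences the capitals mark the element, no 2 elements overlapped, and a match of letters is a description and not a measured binding site. The ATF3 sequence lies at chr1:212565157-212565406 on the plus strand and CHAC1 at chr15:40953221-40953470 on the plus strand, where its element reads on the minus strand. The HSPA5 sequence lies at chr9:125241344-125241593 and XBP1 at chr22:28800570-28800819, both on the minus strand. All are written 5′ to 3′ along the gene and end at the base before the start.
CHAC1: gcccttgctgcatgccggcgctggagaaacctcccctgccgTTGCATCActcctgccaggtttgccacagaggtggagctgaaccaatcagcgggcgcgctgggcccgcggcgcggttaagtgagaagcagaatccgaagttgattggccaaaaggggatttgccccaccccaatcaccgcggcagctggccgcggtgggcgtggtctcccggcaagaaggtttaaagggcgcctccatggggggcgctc
ATF3: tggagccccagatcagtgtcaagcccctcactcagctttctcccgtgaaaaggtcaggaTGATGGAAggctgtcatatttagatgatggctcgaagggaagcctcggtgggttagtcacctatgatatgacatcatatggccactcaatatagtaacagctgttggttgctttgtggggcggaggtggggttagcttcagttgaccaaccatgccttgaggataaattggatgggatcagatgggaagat
HSPA5: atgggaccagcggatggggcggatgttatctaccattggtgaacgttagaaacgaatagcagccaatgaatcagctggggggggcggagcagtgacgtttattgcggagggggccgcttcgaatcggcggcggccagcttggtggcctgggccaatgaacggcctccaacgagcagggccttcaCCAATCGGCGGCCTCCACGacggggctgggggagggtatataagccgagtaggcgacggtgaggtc
XBP1: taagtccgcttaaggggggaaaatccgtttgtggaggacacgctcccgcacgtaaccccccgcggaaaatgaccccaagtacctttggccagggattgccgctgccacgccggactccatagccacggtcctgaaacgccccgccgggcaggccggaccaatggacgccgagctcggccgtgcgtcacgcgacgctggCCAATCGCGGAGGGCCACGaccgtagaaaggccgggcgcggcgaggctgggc

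All 10 members could be compared in every pair, and 9 exceeded 0.5 FPKM in all 4 libraries. The exception was NUPR1 in 8505C wt. In SW1736-PTX against SW1736 wt, 4 of 10 members were called up (DDIT3, ATF3, CHAC1 and DDIT4) and 0 down, where 15.7% of the 14202 genes compared were called up and 10.2% down. In 8505C-PTX against 8505C wt, 4 of 10 were called up (NUPR1, CHAC1, DDIT4 and SESN2) and 0 down, against 15% and 5.89% of the 13794 genes compared. The high level of NUPR1 in 8505C-PTX was known when the members were chosen, so its call there comes with the choice. When SW1736-PTX was set against 8505C wt, 5 of 10 were called up (NUPR1, DDIT3, ATF3, CHAC1 and DDIT4) and 0 down, against 15.1% and 5.23% of 13824 genes. The same counts were also taken among genes above 0.5 FPKM in both libraries of a pair. There, 4 of 10 members were called up in SW1736 against 7.2% of genes, 3 of 9 in 8505C against 8.47%, and 4 of 9 for SW1736-PTX against 8505C wt, where the share of all such genes was 8.28%. NUPR1, below 0.5 FPKM in 8505C wt, is left out of the counts of 9. It is part of all other counts and medians of the members given here. The members' median log2 fold change was 1.42 in SW1736 and 1.10 in 8505C, beside 0.01 and 0.11 over all genes compared. Against 8505C wt the median in SW1736-PTX was 1.49, beside 0.10 over all genes. Both PTX libraries were above both wt libraries for 9 of the 10 members, and for 31.6% of the 14692 genes that exceeded 0.5 FPKM in any library. The exception was HSPA5. The 2 comparisons against 8505C wt share that library.

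**Figure D1:**
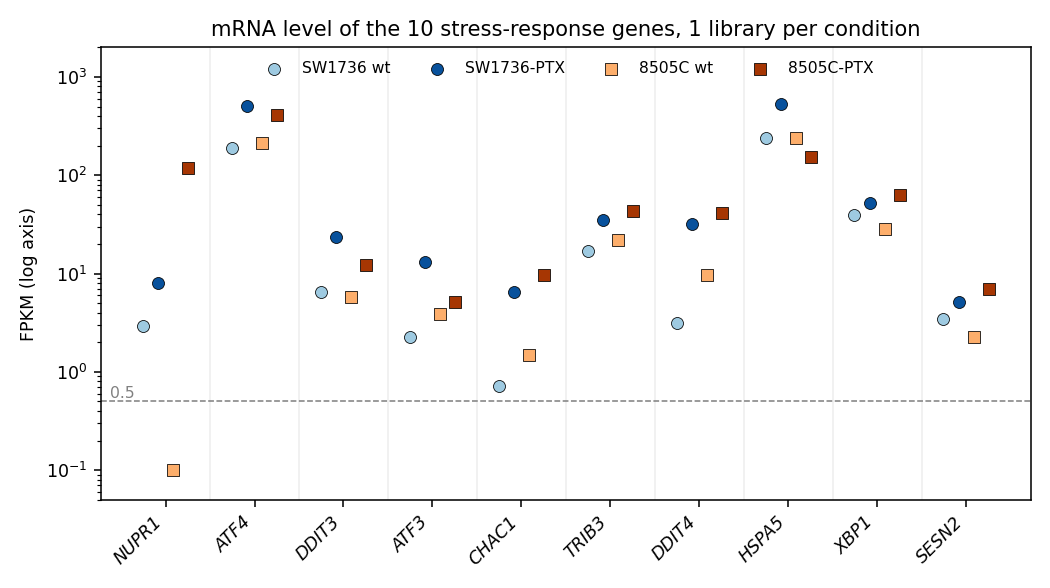
Level of each of the 10 genes in the 4 libraries, in FPKM on a log axis, with 1 point per library (circles for SW1736, squares for 8505C, dark for PTX) and a dashed line at 0.5 FPKM. NUPR1 spans from 0.10 in 8505C wt to 117 in 8505C-PTX, ATF4 and HSPA5 are the 2 highest genes in every library, and HSPA5 alone has a PTX square below its wt square.

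NUPR1 encodes a small nuclear stress protein that is made in many kinds of cell stress. The gene lies on chromosome 16 at 28537341-28539174 on the minus strand of hg38. Its level was 2.94 FPKM in SW1736 wt and 0.10 in 8505C wt, against 7.99 in SW1736-PTX and 117 in 8505C-PTX. The 8505C-PTX library was the highest by far, the 8505C wt library was the lowest, and both SW1736 libraries lay between them. The log2 fold change was 9.19 in 8505C, rank 2 of the 13794 genes compared, and 1.41 in SW1736, rank 2374 of 14202 and just below the limit. Against 8505C wt, the log2 fold change of SW1736-PTX was 5.34, rank 63 of 13824. The size of both folds against 8505C wt rests on very few reads. On the 598 bp transcript, the levels correspond to about 86 reads in SW1736 wt, 3 in 8505C wt, 277 in SW1736-PTX and 3757 in 8505C-PTX. From these reads 8505C-PTX was 1020-fold above 8505C wt, with an exact binomial 95% interval from 348 to 4940, and SW1736-PTX was 69.4-fold above it (23.5 to 339). Within SW1736 the ratio was 2.72 (2.13 to 3.51). These intervals cover counting error only. In 8505C-PTX, NUPR1 ranked 510 of the 13420 genes above 0.5 FPKM, and in SW1736-PTX it ranked 7004 of 13430. In bulk RNA, more cells with the transcript and more transcript per cell cannot be told apart.

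Of the other transcription factors, ATF4 was by far the most abundant. ATF4, the main effector of the integrated stress response, lies on chromosome 22 at 39520559-39522686. It stood at 189 FPKM in SW1736 wt and 213 in 8505C wt, against 510.5 in SW1736-PTX and 408 in 8505C-PTX. Both PTX libraries were above both wt libraries, yet none of the log2 fold changes passed the limit: 1.43 in SW1736, 0.94 in 8505C and 1.26 for SW1736-PTX against 8505C wt. The level exceeded that of 97.3% to 99.0% of the genes above 0.5 FPKM in every library, so ATF4 mRNA was already abundant in wt cells.

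DDIT3 encodes CHOP, a factor downstream of ATF4 that is linked to cell death in prolonged ER stress. It stood at 6.42 FPKM in SW1736 wt and 5.82 in 8505C wt, against 23.7 in SW1736-PTX and 12.2 in 8505C-PTX. The wt libraries were nearly equal and SW1736-PTX was the highest. Log2 fold changes were 1.87 in SW1736, 1.06 in 8505C and 2.01 for SW1736-PTX against 8505C wt. DDIT3, on chromosome 12 at 57516588-57520517 on the minus strand, overlaps MARS, the methionyl-tRNA synthetase gene on the plus strand. The strand setting of the quantification is not given in the sources used here, so reads of the 2 genes may not be separated there. MARS stood at 58.8 FPKM in SW1736 wt and 40.1 in 8505C wt, against 52.3 in SW1736-PTX and 36.9 in 8505C-PTX. Its log2 fold change was -0.17 in the SW1736 pair, -0.12 in the 8505C pair and 0.38 for SW1736-PTX against 8505C wt.

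ATF3, an immediate-early stress factor that is induced by ATF4, lies on chromosome 1 at 212565334-212620777. Its level was 2.28 FPKM in SW1736 wt and 3.87 in 8505C wt, against 13 in SW1736-PTX and 5.16 in 8505C-PTX. SW1736-PTX was the highest library, and 8505C-PTX was only slightly above 8505C wt. The log2 fold change was 2.46 in SW1736 and 1.72 for SW1736-PTX against 8505C wt, and it was 0.40 in 8505C. ATF3 thus had the smallest increase of any member in 8505C, and HSPA5 was the only member with a decrease there.

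CHAC1 and DDIT4 were the 2 members called up in both lines. The share of all genes called up in both lines was not determined. This count, and the list genes named below as called up in both lines, are therefore descriptions only. CHAC1, a glutathione-degrading enzyme that ATF4 and ATF3 switch on, carries the response element shown above and lies on chromosome 15 at 40953438-40956519. It stood at 0.710 FPKM in SW1736 wt and 1.47 in 8505C wt, against 6.55 in SW1736-PTX and 9.65 in 8505C-PTX. It was thus low in both wt libraries and several times higher in both PTX libraries. The log2 fold changes were 3.04 in SW1736, 2.63 in 8505C and 2.08 for SW1736-PTX against 8505C wt. About 53 reads in SW1736 wt and 577 in SW1736-PTX gave a ratio of 9.20 (6.94 to 12.4), and about 97 and 786 reads in 8505C gave 6.59 (5.33 to 8.22).

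DDIT4 encodes REDD1, a stress-induced brake on the growth kinase complex mTORC1. The gene lies on chromosome 10 at 72273919-72276039. It stood at 3.17 FPKM in SW1736 wt and 9.58 in 8505C wt, against 31.9 in SW1736-PTX and 41.4 in 8505C-PTX. The 2 wt libraries differed by 1.57 on the log2 scale, whereas the PTX libraries differed by 0.37. The change in SW1736 therefore depended on the reference, with a log2 fold change of 3.29 against SW1736 wt and 1.73 against 8505C wt. In 8505C it was 2.10, and the ratio from the reads was 4.32 (4.01 to 4.66).

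SESN2 (sestrin 2), another brake on mTORC1 and a target of ATF4 and p53, lies on chromosome 1 at 28259452-28282491. Its level was 3.48 FPKM in SW1736 wt and 2.25 in 8505C wt, against 5.12 in SW1736-PTX and 6.93 in 8505C-PTX. In both lines the PTX library was the higher one, but the groups differed far more in 8505C. The log2 fold change was 1.58 in 8505C, just above the limit, 0.54 in SW1736 and 1.15 for SW1736-PTX against 8505C wt. From the reads the ratio was 3.07 in 8505C (2.73 to 3.47) and 1.47 in SW1736 (1.33 to 1.63). The call in 8505C did not hold with a pseudocount of 1, where the log2 fold change was 1.29, or after centring on the median gene, where it was 1.47.

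TRIB3, a pseudokinase that ATF4 and CHOP induce and that in turn restrains them, lies on chromosome 20 at 380629-397559. It stood at 17.1 FPKM in SW1736 wt and 21.9 in 8505C wt, against 35.2 in SW1736-PTX and 43.6 in 8505C-PTX. The change was about the same in both lines, with a log2 fold change of 1.04 in SW1736 and 0.99 in 8505C, and it did not pass the limit in either. Against 8505C wt, SW1736-PTX was 0.68 higher on the log2 scale.

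The 2 members of the ER arm, both with the ER stress response element in the sequences above, behaved unlike each other. HSPA5, the main chaperone of the ER lumen, lies on chromosome 9 at 125234848-125241387. It was at 237 FPKM in both wt libraries, 529 in SW1736-PTX and 153 in 8505C-PTX. The wt libraries were equal, and the PTX libraries lay on opposite sides of them. The log2 fold change was 1.16 in SW1736 and -0.63 in 8505C, and neither passed the limit. Against 8505C wt, SW1736-PTX was again 1.16 higher on the log2 scale, so this value did not depend on the reference. HSPA5 was the only member below its wt level in any comparison.

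XBP1, the transcription factor of the IRE1 arm, lies on chromosome 22 at 28794560-28800572. It stood at 39.3 FPKM in SW1736 wt and 28.5 in 8505C wt, against 52.1 in SW1736-PTX and 63.0 in 8505C-PTX. XBP1 had the smallest log2 fold change of the 10 members in SW1736, 0.41, and one of 1.14 in 8505C. Against 8505C wt it was 0.87 for SW1736-PTX. From the reads the ratios were 1.33 (1.28 to 1.38) and 2.21 (2.11 to 2.31). The 4 members called in neither line were ATF4, TRIB3, HSPA5 and XBP1, which were also the 4 members above 15 FPKM in all 4 libraries.

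**Figure D2:**
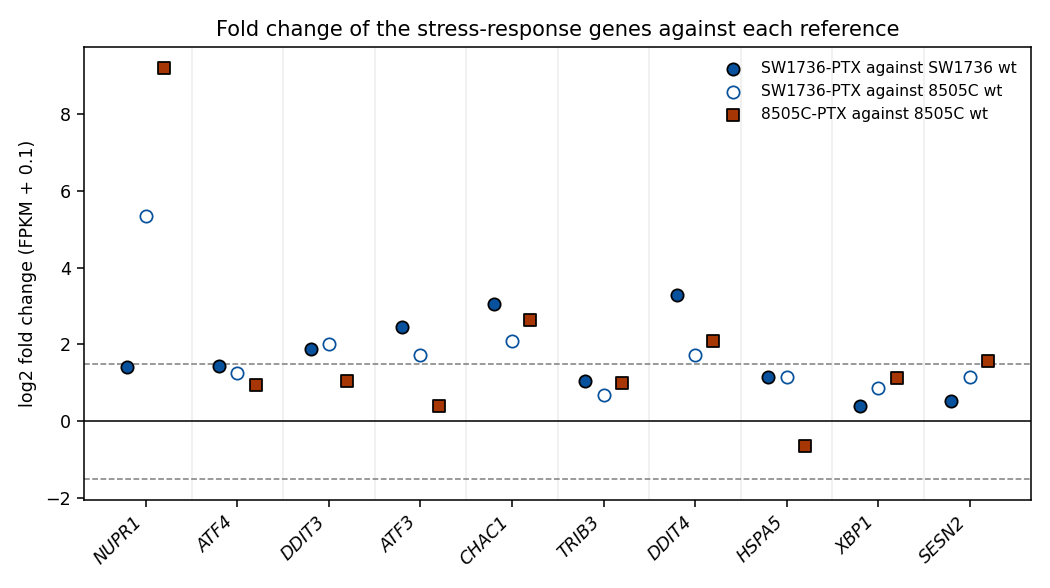
Log2 fold change of FPKM + 0.1 for each gene in SW1736-PTX against SW1736 wt (filled circles), SW1736-PTX against 8505C wt (open circles) and 8505C-PTX against 8505C wt (squares), with dashed lines at the limits of 1.5 either way. CHAC1 and DDIT4 lie above 1.5 in all 3 comparisons, NUPR1 moves from 1.41 to 5.34 with the reference, and HSPA5 in 8505C, at -0.63, is the only point below 0.

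The members fell into different orders in the 2 lines. The log2 fold change was larger in SW1736 for 7 members and larger in 8505C for 3, NUPR1, XBP1 and SESN2. The difference, 8505C minus SW1736, was 7.78 for NUPR1, 1.03 for SESN2 and 0.73 for XBP1. At the other end it was -2.06 for ATF3, -1.79 for HSPA5, -1.20 for DDIT4 and -0.81 for DDIT3, and for TRIB3 it was -0.05. With 1 library per condition none of these differences was tested. Between the wt libraries, 2 members differed by over 1 on the log2 scale, NUPR1 with -3.92 (8505C wt minus SW1736 wt) and DDIT4 with 1.57. Between the PTX libraries the same difference, 8505C-PTX minus SW1736-PTX, was 3.86 for NUPR1, -1.79 for HSPA5 and -1.32 for ATF3, and within 1 on either side for the other 7. With 8505C wt as the reference of SW1736-PTX, 4 members were called up against each wt library (DDIT3, ATF3, CHAC1 and DDIT4). The share of all genes called up against each wt library was not determined.

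**Figure D3:**
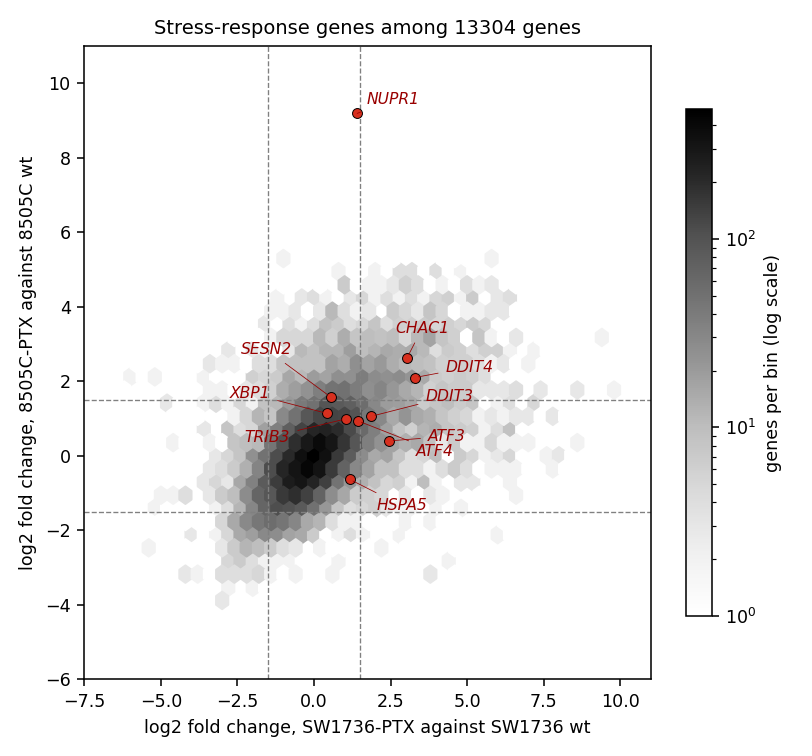
Log2 fold change in SW1736 (x axis) against that in 8505C (y axis) for all genes compared in both lines, as grey bins by number of genes, with the 10 stress-response genes as red points and dashed lines at 1.5 either way. CHAC1 and DDIT4 lie in the upper right beyond both limits, NUPR1 lies apart at 9.19 on the y axis and 1.41 on the x axis, and HSPA5 lies to the right of 0 and below it.

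The genes upstream of ATF4 had no calls. Of 14 genes of the eIF2 kinases, phosphatases and eIF2 and eIF2B subunits, 0 were called in either line, with a median log2 fold change of -0.06 in SW1736 and -0.07 in 8505C. Over all genes compared, 15.7% were called up and 10.2% down in SW1736, and 15% and 5.89% in 8505C. The change of the largest size was that of EIF2S1, which encodes eIF2α itself, with 40.7 FPKM in SW1736 wt and 59.9 in 8505C wt, against 33.3 in SW1736-PTX and 22 in 8505C-PTX. Its log2 fold change was -0.29 in SW1736 and -1.44 in 8505C. PPP1R15A, the stress-induced phosphatase subunit GADD34, was level, from 42.5 to 44.5 FPKM in the SW1736 pair and from 49.3 to 47.8 in the 8505C pair, wt before PTX. The kinase PERK (EIF2AK3) was at 4.42 and 4.59 FPKM in the former pair and at 2.99 and 5.04 in the latter. Of 7 compared ER stress sensors and their proteases, 0 were called in either line, and the sensor IRE1 (ERN1) had the largest log2 fold change, 1.04 in SW1736 and 0.84 in 8505C. A list of 7 genes is too small for 0 calls to be read against the shares over all genes.

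Among the other targets and partners of ATF4 and DDIT3, 4 of 20 compared were called up in SW1736 and 2 down, and 5 of 22 were called up in 8505C and 0 down. These counts lie near the shares of all genes called up, 15.7% in SW1736 and 15% in 8505C. The medians, 0.73 and 0.75, were below those of the 10 members, and against 8505C wt 3 of 20 were called up in SW1736-PTX and 0 down, with a median of 0.82. GDF15, a secreted stress cytokine, was the only gene of this list called up in both lines, and its level was 0.141 FPKM in SW1736 wt and 0.0766 in 8505C wt, against 7.93 in SW1736-PTX and 13.9 in 8505C-PTX. It was near 0 in both wt libraries, with about 8 reads in SW1736 wt and 4 in 8505C wt, and the ratio from reads was 58.2 in SW1736 (29.3 to 135) and 182 in 8505C (70.9 to 670). CEBPB, a bZIP factor that pairs with ATF4 and CHOP, was not alike in the lines, with 3.67 FPKM in SW1736 wt and 22.6 in 8505C wt, against 59.0 in SW1736-PTX and 53.9 in 8505C-PTX. It was called up in SW1736 with a log2 fold change of 3.97 and was at 1.25 in 8505C. Against 8505C wt, CEBPB in SW1736-PTX was 1.38 higher and was not called. ATF5, a factor related to ATF4, was called down in SW1736 with a log2 fold change of -2.61, but against 8505C wt SW1736-PTX was at -1.28 and was not called. In 8505C it was at -0.56. DDR2, a collagen receptor, and ADM2, a peptide hormone, were called up in 8505C, with log2 fold changes of 5.26 and 3.34.

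Genes of amino acid synthesis and uptake that ATF4 is known to control were mixed. In SW1736, 2 of 16 were called up and 1 down, and in 8505C 4 of 16 were called up and 0 down, with medians of 0.23 and 0.46. With shares of 15.7% and 15% called up over all genes, these counts say little about the list. PHGDH, which starts serine synthesis, was called up in both lines. Its level was 48.4 FPKM in SW1736 wt and 37.0 in 8505C wt, against 155 in SW1736-PTX and 161 in 8505C-PTX. ASNS (asparagine synthetase), a classical ATF4 target, was 1.06 higher on the log2 scale in SW1736-PTX and 1.59 higher in 8505C-PTX, and against 8505C wt it was called up in SW1736-PTX as well, with 2.07. SLC7A5, a carrier of large neutral amino acids, was lower in both PTX libraries than in their wt libraries, with log2 fold changes of -1.53 and -0.78. It was called down in SW1736, but not against 8505C wt, where it was at -0.81. CBS and SLC1A4 were called up in 8505C (2.58 and 2.57) and were at -0.51 in SW1736, whereas SW1736-PTX against 8505C wt was at 1.34 and 2.32.

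The ER chaperones and foldases had few calls. Of 20 measured, 1 was called up in SW1736 (PDIA4) and 0 in 8505C, with medians of 0.50 and -0.19, and 0 were called down in either, beside the shares over all genes of 15.7% and 15% called up. In SW1736, 14 of the 20 were above 0, and in 8505C 9 were. PDIA4, a disulfide isomerase, resembled HSPA5, with 146 FPKM in SW1736 wt and 97.1 in 8505C wt, against 554 in SW1736-PTX and 69.5 in 8505C-PTX. Its log2 fold change was 1.93 in SW1736 and -0.48 in 8505C. Against 8505C wt, 1 of the 20 was called up in SW1736-PTX (PDIA4) and 1 down (TXNDC5), with a median of 0.51. HSP90B1, the ER form of HSP90, went from 282 FPKM in wt to 617 in PTX cells of SW1736 and from 296 to 362 in those of 8505C, which gave log2 fold changes of 1.13 and 0.29.

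Among 16 genes of ER-associated degradation, HERPUD1, an adaptor of the retrotranslocation complex, was called up in both lines. Its level was 17.8 FPKM in SW1736 wt and 16.5 in 8505C wt, against 137.5 in SW1736-PTX and 80.5 in 8505C-PTX, with nearly equal wt libraries and both PTX libraries well above them. DERL3, which the tables list at 2 places, was the other one called up in SW1736, with a log2 fold change of 2.72, and in 8505C it was at 1.46. The list's medians were 0.23 and 0.10. Of 8 death genes linked to ER stress, 3 were called up in SW1736 and 2 in 8505C, with medians of 0.96 and 0.05. Lists of this size hold too few genes to be read against the 15.7% and 15% of all genes called up. Both lines shared BBC3 (PUMA), with log2 fold changes of 1.76 and 3.49, and BCL2L11 (BIM), with 1.54 and 1.74, and both genes encode proteins that promote mitochondrial apoptosis. BAX and BAK1, the effectors of that pathway, were at -1.35 and -0.84 in SW1736 and at -0.58 and -1.40 in 8505C.

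Other brakes on mTORC1 were set beside DDIT4 and SESN2. DEPTOR, which binds the mTOR complexes, stood at 1.09 FPKM in SW1736 wt and 3.63 in 8505C wt, against 11.9 in SW1736-PTX and 19.4 in 8505C-PTX. It was called up in both lines, with log2 fold changes of 3.33 and 2.39. In all, 1 of 5 compared was called up in SW1736 and 3 of 6 in 8505C, with medians of 0.36 and 1.71. The other 2 in 8505C were GATSL3 (CASTOR1), an arginine sensor, with 3.53, and SESN3 with 2.38, which was at 0.757 FPKM in 8505C-PTX and below 0.2 in the other 3 libraries. This list too is too small to be read against the 15.7% and 15% of all genes called up. Its median in 8505C ranged from 0.85 to 1.73 over the settings tried. The 10 p53 targets, listed because p53 also controls SESN2, had medians of 0.21 and 0.08. BTG2, an antiproliferative gene, was called up in both lines (2.45 and 3.28), while CDKN1A, which encodes the cell cycle inhibitor p21, was at 1.17 and 0.05.

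With 8505C wt as the reference of SW1736-PTX, the eIF2 genes and the ER sensors again had 0 calls, with medians of 0.02 and 0.23. Of the amino acid genes 3 of 16 were called up and 0 down (median 0.53), of the ER-associated degradation genes 2 of 16 were called up and 1 down (-0.02), and of the death genes 2 of 8 were called up and 0 down (0.33). Among the mTORC1 brakes 2 of 5 were called up and 0 down (0.95), and among the p53 targets 1 of 10 was called up and 1 down (0.15). Over all genes, 15.1% were called up and 5.23% down with this reference. The list genes called up in both lines were above 1.5 with this reference too, at 5.51 for GDF15, 2.06 for PHGDH, 3.05 for HERPUD1, 3.49 for BBC3, 2.11 for BCL2L11, 1.68 for DEPTOR and 2.60 for BTG2. How many of all genes called up in both lines also passed with this reference was not determined. DERL3 was at 2.78, PDIA4 at 2.51 and GATSL3 at 2.25, and the 3 were called up. HSP90B1 was at 1.06, ERN1 at 0.73, EIF2AK3 at 0.60 and CDKN1A at 0.51, while PPP1R15A was at -0.15, BAX at -0.42, EIF2S1 at -0.84 and BAK1 at -1.04, and these were not called. DDR2, ADM2 and SESN3 were not compared there, since both libraries were below 0.5 FPKM.

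**Figure D4:**
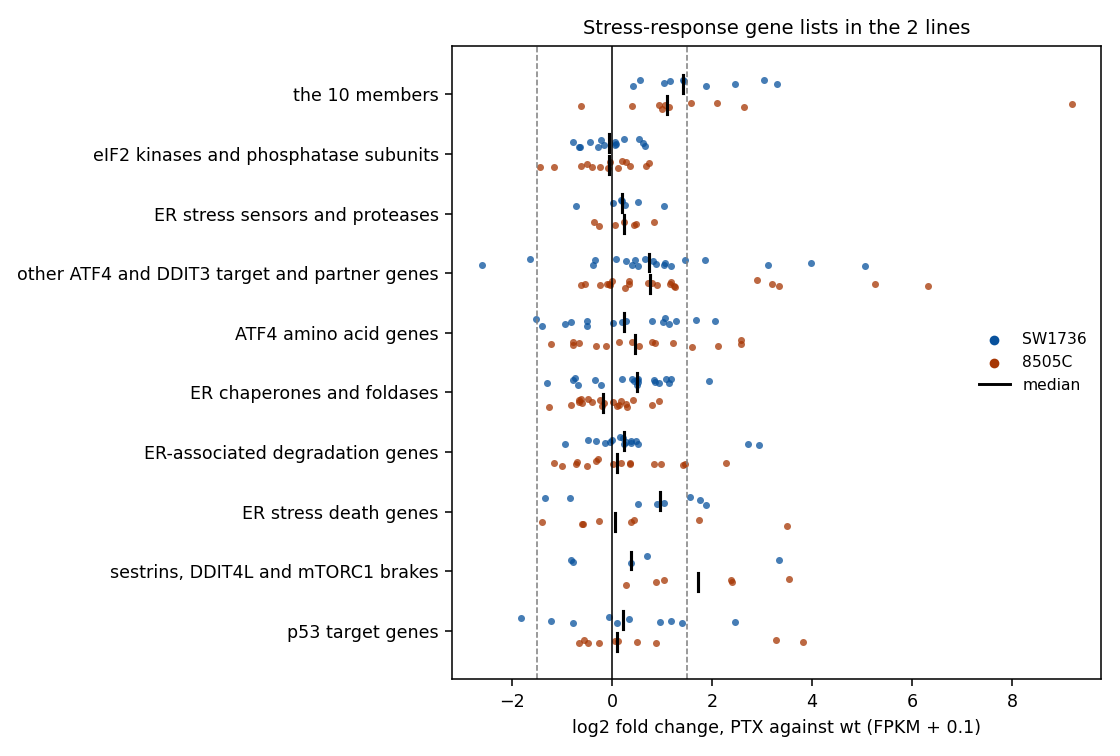
Log2 fold change of FPKM + 0.1, PTX against wt, of each compared gene in the 10 members and the 9 related lists, with blue points for SW1736, red-brown points for 8505C, a black bar for each median and dashed lines at 1.5 either way. The members' medians, 1.42 and 1.10, lie to the right of those of the other lists, except for the sestrins and other mTORC1 brakes in 8505C, whose median is 1.71.

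The genes whose pattern over the 4 libraries was nearest to that of NUPR1 were sought by the Euclidean distance between log2(FPKM + 0.1) values centred on each gene's mean. Over 14691 genes, the nearest were ERV3-1 (distance 1.42), ZNF117 (2.29), BMF (2.29), MGP (2.35) and MAP2 (2.53). All 5 were at their highest in 8505C-PTX and at their lowest in 8505C wt, as NUPR1 was, which follows from how they were chosen. ERV3-1, a gene from an endogenous retrovirus, had nearly equal levels in the SW1736 pair (3.97 and 3.92 FPKM), was listed at 0 in 8505C wt and was at 42.4 in 8505C-PTX. ZNF117 overlaps ERV3-1 on chromosome 7 (64974452-64991036 and 64990355-65006746), so the 2 may share reads. BMF, which like BIM promotes apoptosis, stood at 1.04 FPKM in SW1736 wt and 0.115 in 8505C wt, against 4.13 in SW1736-PTX and 13.9 in 8505C-PTX. The nearest of the other members was CHAC1, with a distance of 4.84 and rank 735, and the farthest was HSPA5, with 7.00 and rank 10439. Of the 9 other members, 7 ranked between 735 and 2822, and the span of NUPR1 between the 8505C libraries makes the distance large for most genes.

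The neighbours of NUPR1 on chromosome 16 were listed to describe the changes in its region. Within 0.5 Mb of its start lie 23 genes that map to a single place. In 8505C, 15 of them were compared, with 2 called up, 1 down and a median log2 fold change of 0.66. Over all genes, 15% were called up and 5.89% down there, with a median of 0.11. In SW1736, 17 were compared, with 4 called up, 3 down and a median of 0.13. Over all genes, 15.7% were called up and 10.2% down there, with a median of 0.01. Against 8505C wt, 16 were compared in SW1736-PTX, with 4 called up, 0 down and a median of 0.42. Over all genes, 15.1% were called up and 5.23% down with that reference, with a median of 0.1. The highest neighbour in both lines was SULT1A1, a phenol sulfotransferase 75.4 kb from NUPR1. It stood at 0.0771 FPKM in SW1736 wt and 1.45 in 8505C wt, against 5.69 in SW1736-PTX and 18.0 in 8505C-PTX, with log2 fold changes of 5.03 and 3.54, and of 1.90 for SW1736-PTX against 8505C wt. SULT1A1 and the NPIPB genes have near-identical copies nearby, so their reads may be split between copies. The nearest compared genes on either side were CLN3, a lysosomal membrane protein gene (0.16 in SW1736, 0.84 in 8505C and 0.78 for SW1736-PTX against 8505C wt), and CCDC101, a chromatin subunit gene (1.05, 1.34 and 1.48). Neither was called, while SBK1 and NPIPB6 on the CLN3 side were called up in SW1736, and on the other side NPIPB9 was called beside SULT1A1. NPIPB6 was also called up in 8505C. Against 8505C wt these 3 genes were called up in SW1736-PTX too. In 8505C no neighbour exceeded a log2 fold change of 3.54, beside 9.19 for NUPR1. NUPR1 was chosen with its high level known and ranked 2 of 13794 genes there, so nearly any neighbour would lie below it. Whether the gene was high alone or with its region was not tested.

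**Figure D5:**
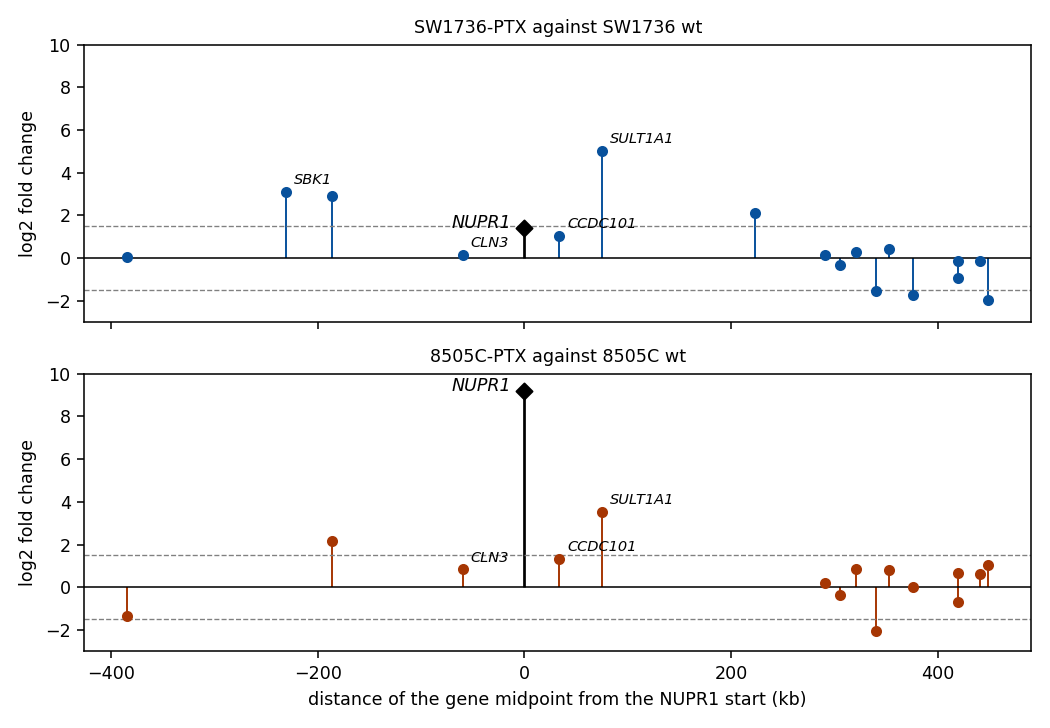
Log2 fold change of the compared genes within 0.5 Mb of NUPR1, by the distance in kb of each gene's midpoint from the start of NUPR1, for SW1736 (upper panel) and 8505C (lower panel), with dashed lines at 1.5 either way and NUPR1 as a black diamond. In 8505C NUPR1 stands at 9.19 above neighbours that reach 3.54, and in SW1736, at 1.41, it is below SULT1A1 (5.03).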

How the data were processed

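mRNA was sequenced as single-end reads of 75 bp from 4 libraries, SW1736 wt, SW1736-PTX, 8505C wt and 8505C-PTX, grouped by their titles. The authors removed adapters with Cutadapt and low-quality bases with ERNE, used STAR for alignment to hg38 and StringTie for the abundance of gene loci. The submitters' processing notes name bcl2fastq 2.20, and the versions of the other tools and the annotation are not given in the sources used here. In the deposited files, coverage is the average number of reads over each base of a gene, not adjusted for depth. StringTie divided it by the aligned bases for the FPKM that the authors deposited. For the TPM values, which the authors deposited beside it, the sum over genes is equal in all libraries. A count model was not used, because the files list abundances and not reads per gene.

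FPKM rows of a gene name were summed, and fold changes and calls were made as described in the text. The limits of 0.5 FPKM and 1.5 are those of the study's methods. The pseudocount of 0.1, and the requirement that at least 1 library pass the minimum, are choices made here. The members and the gene lists were chosen with earlier results of these data known. Depth was estimated from the median ratio of coverage to FPKM in each library, with a read length of 75 bp. Approximate reads are FPKM times transcript length (GENCODE 44, the longest transcript within the gene's span in the tables) times depth, given only where coverage over FPKM was within 10% of the library's usual value. Intervals of ratios are exact binomial 95% intervals and cover counting error only. Named list genes are those called in both lines, otherwise up to 3 of the largest fold change in either line. EIF2AK3, PPP1R15A, ATF5, ASNS, SLC7A5, HSP90B1, CDKN1A and MARS were named after their values were seen. Older symbols of 8 list genes were matched through the reference table, and 1 list entry without a value of its own was dropped. The code that makes the calls was tested on simulated data, which says nothing of the spread between cultures. Alternatives changed the pseudocount, the FPKM minimum, the unit, the centring, the handling of repeated names, the fold limit and the reference library, and 1 chosen after seeing the data used coverage per aligned base. Python 3.11.15, NumPy 2.4.6, pandas 2.3.3, SciPy 1.17.1 and matplotlib 3.10.9 were used.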

Additional observations from a re-analysis of the deposited data

Results flagged for a closer look

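Some genes stood out because the PTX library was above its wt library in one line and below it in the other. The value is the log2 fold change in 8505C minus that in SW1736. It was -1.79 for HSPA5, the main ER chaperone, and -2.41 for PDIA4, a disulfide isomerase of the same compartment, both higher in SW1736-PTX than in SW1736 wt and lower in 8505C-PTX than in 8505C wt. It was 3.09 for CBS, an enzyme of cysteine synthesis that the tables list at 2 places, 3.08 for SLC1A4, a carrier of neutral amino acids, and 4.36 for GATSL3 (CASTOR1), all lower in SW1736-PTX and higher in 8505C-PTX than in their wt libraries. Against 8505C wt, SW1736-PTX was higher for these 3 genes as well, by 1.34 for CBS, 2.32 for SLC1A4 and 2.25 for GATSL3 on the log2 scale. With 1 library per condition these differences were not tested.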

How the results depend on the processing

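No paired analysis was possible because each group is 1 library. Over 11 alternative settings, 292 of 308 log2 fold changes of the members stayed on the same side of the limit. Of the rest, 6 lost the call and 10 gained it. Several settings could not move a member's value. The FPKM minimum only decides which genes enter, each member is listed at a single place, and the fold limits move only the limit. The count of 292 is therefore no measure of stability. Among values called in either setting 0 changed sign, and sign changes of uncalled values were not counted. With a fold limit of 1, 8 members were called up in SW1736, beside 3141 of all 14202 genes compared. For SW1736-PTX against 8505C wt, 8 were called up at that limit, beside 3085 of 13824 genes. With a limit of 2, 3 members were called up in the latter comparison, beside 1456 genes. NUPR1 could not be compared against 8505C wt when both libraries had to pass the FPKM minimum. The counts called among all genes moved more, and the cause was not tested. With a pseudocount of 1, 1222 genes were called up and 841 down in SW1736, 969 and 473 in 8505C, and 990 and 391 for SW1736-PTX against 8505C wt. With both libraries above the minimum, 850 were called up and 851 down in SW1736, 1018 up in 8505C, and 993 up and 468 down for SW1736-PTX against 8505C wt. With a fold limit of 1, 2591 were called down in SW1736, 3108 up and 1784 down in 8505C, and 1601 down for SW1736-PTX against 8505C wt. With a limit of 2, the counts called down were 875, 375 and 341 in these 3 comparisons. Values of low genes, above all NUPR1 and GDF15 in the wt libraries, are limited by depth.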
